A study of Mus musculus with 30 samples.

Results

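Acute-phase proteins are plasma proteins whose synthesis in the liver changes during inflammation, and 10 genes that encode such proteins were followed here through the RNA of mice labelled as transgenic or knockout for A1cf. The genes were taken by name, after matching Ensembl identifiers to gene symbols, and are 10 of the 41388 genes in the count tables. They are the 4 serum amyloid A genes Saa1, Saa2, Saa3 and Saa4, the lipopolysaccharide-binding protein gene Lbp, the leucine-rich glycoprotein gene Lrg1, the orosomucoid genes Orm1 and Orm2, the haptoglobin gene Hp and the lipocalin gene Lcn2. All 10 were counted in every RNA library and passed the filter on low counts in every comparison.

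A1CF is an RNA-binding protein known as the complementation factor of APOBEC1 editing of apolipoprotein B mRNA. Plated hepatocytes came from 12-week-old mice and had been kept overnight on collagen after collagenase digestion of the liver; 3 pools carried the strain label A1cf_Tg/+ and 3 were wild-type C57BL/6J. Whole livers came from 12-month-old mice: 4 pools labelled A1cf_Tg/+ and 4 of wild-type C57BL/6J were sequenced together, and 3 pools of the knockout A1cf_-/- and 3 of wild-type C57BL/6NJ were sequenced in a separate study. Each pool mixed RNA of 3 to 4 mice, so a value averages over several mice, and the promoter that drives the transgene is not given in the sources used here. The remaining 10 libraries were CLIP-seq, the sequencing of RNA crosslinked to a precipitated protein, from A1cf_Tg/+ hepatocytes.

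The acute-phase response is the liver's answer to infection and injury: macrophages release cytokines such as TNF and those encoded by Il1b and Il6, and hepatocytes answer through STAT3, NF-kB and C/EBP factors with a large output of defence proteins. SAA1 and SAA2 travel on high-density lipoprotein and are among the most inducible products of the mouse liver, SAA3 is also made outside the liver by macrophages and fat, and SAA4 is the constitutive family member. LBP hands lipopolysaccharide to CD14, haptoglobin captures free haemoglobin, lipocalin 2 withholds bacterial iron carriers from microbes, orosomucoids bind lipophilic compounds in plasma, and LRG1 modulates TGF-beta signalling in vessels.

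In the GRCm38 coordinates of the files, the 4 Saa genes lie together on chromosome 7, from base 46711998, where Saa3 begins, to base 46754314, where Saa2 ends. Orm1 and Orm2 are neighbours on chromosome 4, at bases 63344560 to 63348163 and 63362449 to 63365878. Lcn2 and Lbp lie on chromosome 2, Hp on chromosome 8 and Lrg1 on chromosome 17. Saa1 and Saa2 shared 31.1% of the 50-base windows of Saa1 transcripts and 30.0% of those of Saa2, and Orm1 and Orm2 shared 20.4%. How the authors counted reads that match more than 1 gene, and whether strand was used, is not given in the sources used here, so the split of counts between Saa1 and Saa2 and between Orm1 and Orm2 is uncertain.

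RefSeq promoter windows of GRCm38.p6, with 250 bases before and 50 after the start site, were found for 7 of the 10 genes and not for Lbp, Orm1 and Hp. The 6 printed here belong to Saa3 and Lrg1, which rose in Tg-labelled hepatocytes, to the near copies Saa1 and Saa2, and to Orm2 and Lcn2, which passed the test in Tg-labelled livers once 1 pool was left out. Capitals mark matches to the C/EBP motif TTGCNNAA, searched on both strands.
Saa1, chr7:46742931-46743230, minus strand: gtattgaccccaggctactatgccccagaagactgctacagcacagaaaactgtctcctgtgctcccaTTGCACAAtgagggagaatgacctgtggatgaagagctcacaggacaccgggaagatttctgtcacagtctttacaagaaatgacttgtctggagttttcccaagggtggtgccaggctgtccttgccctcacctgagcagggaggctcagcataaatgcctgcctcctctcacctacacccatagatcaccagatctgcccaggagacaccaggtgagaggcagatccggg
Saa2, chr7:46751583-46751882, plus strand: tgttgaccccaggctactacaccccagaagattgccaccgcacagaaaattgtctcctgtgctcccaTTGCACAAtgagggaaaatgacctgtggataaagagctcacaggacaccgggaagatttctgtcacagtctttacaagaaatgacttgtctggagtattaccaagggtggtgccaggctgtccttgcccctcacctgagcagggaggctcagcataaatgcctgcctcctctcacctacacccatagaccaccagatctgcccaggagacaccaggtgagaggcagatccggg
Saa3, chr7:46715627-46715926, minus strand: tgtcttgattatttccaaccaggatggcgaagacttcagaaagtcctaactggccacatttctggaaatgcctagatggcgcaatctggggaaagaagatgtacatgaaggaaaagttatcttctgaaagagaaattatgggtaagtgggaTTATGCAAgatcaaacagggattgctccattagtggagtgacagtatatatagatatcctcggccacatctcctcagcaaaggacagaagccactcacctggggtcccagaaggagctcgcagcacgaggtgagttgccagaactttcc
Orm2, chr4:63362199-63362498, plus strand: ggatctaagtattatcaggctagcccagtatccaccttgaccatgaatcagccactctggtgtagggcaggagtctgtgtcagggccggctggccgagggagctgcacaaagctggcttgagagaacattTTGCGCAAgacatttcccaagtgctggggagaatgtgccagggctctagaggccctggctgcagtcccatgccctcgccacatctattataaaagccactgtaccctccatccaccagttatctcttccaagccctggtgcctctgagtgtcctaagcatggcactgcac
Lcn2, chr2:32387690-32387989, minus strand: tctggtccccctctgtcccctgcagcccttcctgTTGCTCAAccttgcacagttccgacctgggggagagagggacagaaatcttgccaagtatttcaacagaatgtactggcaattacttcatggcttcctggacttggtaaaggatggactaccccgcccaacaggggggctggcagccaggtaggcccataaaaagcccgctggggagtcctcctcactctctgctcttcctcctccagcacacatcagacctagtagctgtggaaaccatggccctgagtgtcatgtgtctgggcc
Lrg1, chr17:56121897-56122196, minus strand: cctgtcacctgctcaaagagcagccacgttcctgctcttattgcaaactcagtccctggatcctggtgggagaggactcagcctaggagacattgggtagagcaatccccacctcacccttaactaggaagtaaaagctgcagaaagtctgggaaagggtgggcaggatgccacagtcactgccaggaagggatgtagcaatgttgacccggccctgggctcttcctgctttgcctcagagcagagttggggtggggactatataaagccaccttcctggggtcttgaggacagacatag

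The C/EBP letters were found in 6 of the 7 windows: once in Saa1, Saa2, Saa3, Orm2 and Lcn2, 2 times in Saa4, and not in Lrg1. Among all 32851 RefSeq windows of this length, 10.8% held them. The match began 182 bases before the start site in Saa1 and 183 bases before it in Saa2, whose windows were identical at 287 of 300 aligned bases (95.67%), and 99 bases before it in Saa3. The STAT motif TTCNNNGAA, searched likewise on both strands and held by 8.3% of all windows, was found in none of the 7. These are matches of letters and were not tested as binding sites.

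RNA libraries held 17044839 to 37211328 assigned counts, and the 10 genes took 0.322% to 2.08% of them. A1cf itself averaged 24.5 ± 4.39 CPM (counts scaled to the same total of assigned reads in every library) in knockout livers and 213 ± 20.8 CPM in C57BL/6NJ livers (SD, n = 3 each), with a log2 difference of -3.12 (edgeR adjusted p = 1.59e-05). A1cf was not higher in the libraries with the Tg label: it averaged 163 ± 7.96 CPM in Tg-labelled and 232 ± 30.9 in C57BL/6J livers (SD, n = 4 each; log2 fold change -0.65, edgeR adjusted p = 0.0369), and 9.23 ± 1.64 in Tg-labelled and 9.35 ± 2.51 CPM in wild-type hepatocytes (SD, n = 3 each). Whether transcripts of the transgene were counted under A1cf is not given in the sources used here, so these values cannot check the label, and the libraries are called Tg-labelled throughout. All 10 hepatocyte markers were present in every library. Mitochondrial genes took 1.40%, 1.39% and 2.01% of the counts of Tg-labelled hepatocyte pools 1 and 2 and of wild-type pool 1, and 3.14% to 3.71% of those of the remaining 3 hepatocyte pools. C57BL/6J liver pool 2 and knockout liver pool 1 carried skeletal muscle RNA, with muscle markers summing to 1869 and 101 CPM; the other 2 knockout pools held at least 19.1 CPM of them, against at most 0.905 CPM in C57BL/6NJ livers.

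In plated hepatocytes all 10 acute-phase genes had estimates above 0 in the Tg-labelled pools, and 3 of them rose: Saa3, Lrg1 and Lbp. The edgeR quasi-likelihood test on counts, with Benjamini-Hochberg adjustment over all genes at 0.05, called 434 of 13770 genes (3.15%; 1.53% higher), against 3 of these 10. At an unadjusted p below 0.05 there were 6 of the 10, beside 28.9% of all genes tested. The median log2 fold change of the 10 was 0.70, beside -0.020 over all genes tested. In 6 of the 10 (Saa3, Saa4, Lbp, Lrg1, Orm2 and Lcn2) every Tg-labelled pool was above every wild-type pool, as was the case for 15.7% of all genes tested (32.5% were separate in either direction). In bulk RNA, more or fewer cells of a type and more or less RNA per cell cannot be told apart.

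Saa3 showed the largest estimate of the serum amyloid genes. It reached 441, 482 and 486 CPM in the 3 Tg-labelled pools, against 97.6, 124 and 208 CPM in the wild-type pools. The Tg-labelled values lay close together and far above the highest wild-type pool, and Saa3 rose by a log2 fold change of 1.76 ± 0.26 (SE; edgeR adjusted p = 0.0287). Saa4 was at 68.5, 84.1 and 97.3 CPM in Tg-labelled pools and 45.3, 64.1 and 53.9 CPM in wild-type pools. These groups did not overlap, yet the difference of 0.65 ± 0.17 did not pass the test (edgeR adjusted p = 0.0828). Saa1 counted 1333, 1343 and 1128 CPM in Tg-labelled pools and 1125, 959.8 and 1141 CPM in wild-type pools. Saa2, its near copy, was at 1100.1, 1002 and 898 CPM in Tg-labelled pools and 942, 894 and 968 CPM in wild-type pools. Both genes overlapped between the groups, with log2 fold changes of 0.28 ± 0.15 for Saa1 and 0.14 ± 0.15 for Saa2.

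Lrg1, the glycoprotein gene, was at 1009, 892 and 656 CPM in Tg-labelled pools and at 388, 323 and 348 CPM in wild-type pools. It rose by 1.32 ± 0.21 on the log2 scale (SE; edgeR adjusted p = 0.0304), and its lowest Tg-labelled pool, pool 3, was still above all wild-type pools. Lbp, which carries lipopolysaccharide to its receptors, had 93.9, 89.1 and 76.3 CPM in Tg-labelled pools and 52.7, 54.4 and 51.9 CPM in wild-type pools. Its wild-type values were nearly equal, and it rose by 0.75 ± 0.14 (SE; edgeR adjusted p = 0.0464). The 2 groups were also separate for Lcn2, the iron-carrier trap. It was at 7646, 7917 and 4983 CPM in Tg-labelled pools and 3682, 2261 and 3714 CPM in wild-type pools, a difference of 1.13 ± 0.29 that missed the threshold (edgeR adjusted p = 0.0756). Orm2 had 751, 799 and 505 CPM in Tg-labelled pools and 401, 184 and 348 CPM in wild-type pools, with a log2 fold change of 1.18 ± 0.32 (edgeR adjusted p = 0.0871). Its neighbour Orm1 and the haemoglobin scavenger gene Hp overlapped between the groups. Orm1 ranged from 1141 to 1328 CPM in Tg-labelled pools and from 995 to 1199.6 CPM in wild-type pools, and Hp from 5076 to 7037 CPM in Tg-labelled pools and from 4517 to 6849 CPM in wild-type pools.

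The hepatocyte calls depended on single pools. With Tg-labelled pool 1 or 2, or any 1 of wild-type pools 1, 2 and 3, left out, 0 of the 10 genes passed. In those fits 0 to 90 genes passed in all. Without Tg-labelled pool 3, 6 of the 10 passed, where 4934 of all 14103 genes tested did. DESeq2 on all pools also called 6, beside 12.7% of all genes it tested. Without the 3 pools of low mitochondrial share, Saa3 (1.58, edgeR adjusted p = 8.09e-07), Lrg1 (1.00, adjusted p = 0.00915) and Orm2 (0.96, adjusted p = 0.0156) passed and Lbp (0.55, adjusted p = 0.353) did not; that fit leaves 1 Tg-labelled pool, whose spread is taken from the wild-type pools. Macrophage markers were also higher in sum: all 13 were detected in every hepatocyte pool and summed to 346 to 662 CPM in Tg-labelled pools and 207 to 319 CPM in wild-type pools. All 12 that could be tested had estimates above 0, although edgeR called 0 of them. At an unadjusted p below 0.05 there were 6 of the 12, beside 28.9% of all genes, and DESeq2 called 3, beside 12.7%. The 12 neutrophil markers summed to 1.505 to 2.68 CPM in Tg-labelled and 0.481 to 1.73 CPM in wild-type pools, 4 to 12 of them detected, and the 1 that could be tested, Csf3r, had an estimate of -0.49 ± 0.50. Adipocyte markers summed to 21.8 to 49.4 CPM in Tg-labelled and 4.39 to 6.15 CPM in wild-type pools, 3 to 5 of 6 detected and Adipoq at 0 in all pools. Most of this sum was Cidec, at 29.1 ± 12.3 CPM in Tg-labelled and 4.31 ± 0.90 CPM in wild-type pools (SD, n = 3 each). The 10 skeletal muscle markers, 2 or 3 of them detected, summed to 16.9 to 46.3 CPM in Tg-labelled and 4.50 to 11.9 CPM in wild-type pools. Nearly all of this was Acta1, at 27.2 ± 16.2 CPM in Tg-labelled and 7.79 ± 3.64 CPM in wild-type pools (SD, n = 3 each). Of the 2 muscle markers that could be tested, 1 had an estimate above 0, and edgeR called 0. The 6 cholangiocyte markers were lower in sum, at 406 to 669.8 CPM in Tg-labelled and 690.0 to 1223 CPM in wild-type pools, 5 or 6 of them detected. Single genes of this list went both ways: 3 of the 5 that could be tested had estimates above 0, with a median log2 fold change of 1.31. For these 5, edgeR called 0 (3 at an unadjusted p below 0.05, beside 28.9% of all genes), and DESeq2 called 2 higher and 0 lower, beside 12.7%. The part of these cells and of the mitochondrial share in the result was not tested.

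**Figure D1:**
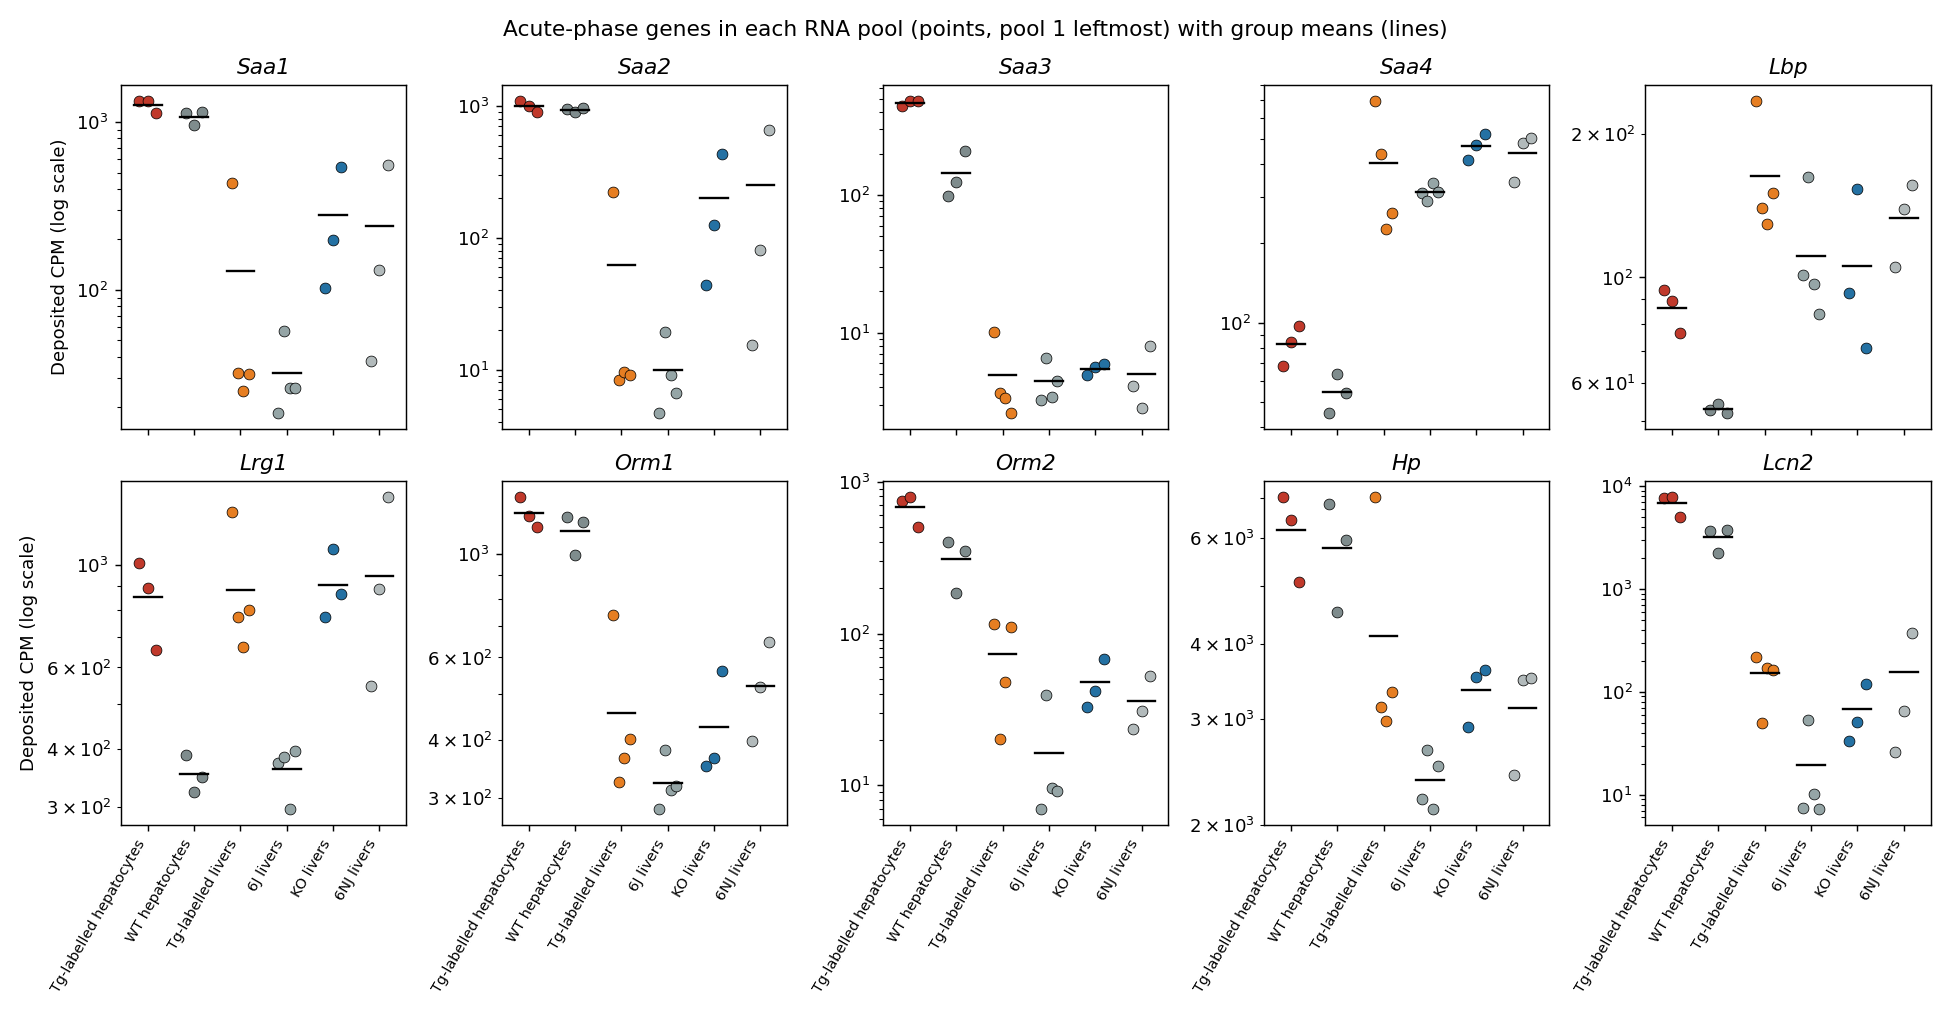
Deposited CPM (log axis, different range in each panel) of each acute-phase gene in every RNA pool, by group; points are single pools and lines are group means. Saa3, Saa4, Lbp, Lrg1, Orm2 and Lcn2 are separated between Tg-labelled and wild-type hepatocytes, and liver pool 1 of the Tg-labelled group lies above the other pools of its group in all 10 panels.

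In whole livers 1 of the 10 genes rose in the Tg-labelled pools, Lrg1, although all 10 estimates were again above 0. The test called 188 of 14110 genes (1.33%; 0.971% higher). At an unadjusted p below 0.05 there were 4 of the 10, beside 20.3% of all genes tested, and DESeq2 called 2, Lrg1 and Lcn2, beside 8.28%. The median log2 fold change of the 10 was 0.92, beside -0.0048 over all genes tested. Tg-labelled pool 1 was the highest of its group for all 10 genes. With single pools left out, the lowest estimates were below 0 for Saa1 (-0.27), Saa2 (-0.31), Saa3 (-0.64), Saa4 (-0.19) and Orm1 (-0.010). With library size alone as scaling, the median of all genes was 0.13 and the calls were 251 higher and 34 lower, beside 137 and 51 here. Lrg1 and Hp were the 2 genes of the 10 with every Tg-labelled pool above every C57BL/6J pool, which held for 11.3% of all genes tested (13.4% were separate in either direction).

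Lrg1 was at 1301, 769.9, 665 and 799.8 CPM in Tg-labelled livers and at 374, 384, 296 and 397 CPM in C57BL/6J livers. The lowest Tg-labelled pool was well above the highest C57BL/6J pool, and Lrg1 rose by 1.17 ± 0.23 (SE; edgeR adjusted p = 0.0484). Hp had 7028, 3139, 2979 and 3327 CPM in Tg-labelled livers and 2207, 2663, 2121 and 2508 CPM in C57BL/6J livers. Pool 1 of the Tg-labelled livers stood far above the other 3, and the difference of 0.68 ± 0.30 did not pass (edgeR adjusted p = 0.241).

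Lcn2 and Orm2 had large estimates with a wide spread. Lcn2 was at 219.6, 49.8, 169 and 164.5 CPM in Tg-labelled livers and at 7.41, 53.4, 10.1 and 7.22 CPM in C57BL/6J livers, so the lowest Tg-labelled pool was below the highest C57BL/6J pool. The log2 fold change of 2.83 ± 0.72 did not pass (edgeR adjusted p = 0.0802). Orm2 counted 116, 20.1, 48.0 and 109.7 CPM in Tg-labelled livers and 6.95, 39.3, 9.60 and 9.09 CPM in C57BL/6J livers, a difference of 2.06 ± 0.67 (edgeR adjusted p = 0.138). In both genes the overlap came from Tg-labelled pool 2, which was low, and C57BL/6J pool 2, which was high.

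The inducible serum amyloid genes Saa1 and Saa2 were high in a single Tg-labelled liver pool. Saa1 was at 433 CPM in Tg-labelled pool 1 and at 25.2 to 31.85 CPM in the other Tg-labelled pools, against 18.5 to 56.6 CPM in C57BL/6J pools. Saa2 followed it, at 222 CPM in Tg-labelled pool 1 and 8.29 to 9.66 CPM in the others, against 4.67 to 19.2 CPM in C57BL/6J pools. Their log2 fold changes were 1.97 ± 0.96 and 2.58 ± 1.15, with edgeR adjusted p of 0.284 for Saa1 and 0.250 for Saa2, and without that pool -0.27 and -0.31. Saa3 was low in these livers, at 2.60 to 10.2 CPM in Tg-labelled and 3.25 to 6.60 CPM in C57BL/6J pools. The constitutive Saa4 spanned 227 to 698 CPM in Tg-labelled pools and 289.7 to 339 CPM in C57BL/6J pools. Lbp spanned 129 to 235 CPM in Tg-labelled and 84.0 to 163 CPM in C57BL/6J pools, and Orm1 324 to 738 CPM in Tg-labelled and 284 to 379 CPM in C57BL/6J pools. The groups overlapped for all 4 of these genes.

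Tg-labelled liver pool 1 was the highest of its group for all 10 genes, and C57BL/6J pool 2, the pool with muscle RNA, was the highest of its group for 8 of them (all but Saa4 and Lrg1). Without C57BL/6J pool 2, Lcn2 (4.02 ± 0.49, edgeR adjusted p = 0.0130) and Orm2 (2.94 ± 0.58, adjusted p = 0.0412) passed and Lrg1 (1.17 ± 0.27, adjusted p = 0.0574) did not. In that fit 385 of all 14315 genes tested passed. Without C57BL/6J pool 2 and Tg-labelled pool 1, a fit chosen after seeing the data, all 3 genes passed, where 924 of all 14107 did. Lcn2 was at 3.73 ± 0.44, Orm2 at 2.58 ± 0.54 and Lrg1 at 0.88 ± 0.15, with edgeR adjusted p of 0.0110, 0.0357 and 0.0234. The call of Lrg1 was also lost without Tg-labelled pool 3 or 4 or C57BL/6J pool 1, 3 or 4, and it held without Tg-labelled pool 1 or 2. Neutrophils also make lipocalin 2; their markers summed to 9.04 to 32.8 CPM in Tg-labelled livers and 4.40 to 8.97 CPM in C57BL/6J livers, 7 to 12 of 12 detected. All 4 neutrophil markers that could be tested there, S100a8, S100a9, Csf3r and Cxcr2, had estimates above 0, of 1.02 to 1.81. The rest of the 12 were too low to test, and S100a8 averaged 2.18 ± 1.55 CPM in Tg-labelled and 0.55 ± 0.14 CPM in C57BL/6J livers (SD, n = 4 each). Of the 4, edgeR called 0, with 3 at an unadjusted p below 0.05, beside 20.3% of all genes. DESeq2 called 4 of the 12 higher, beside 8.28% of all genes. The 8 stellate cell markers summed to 627 to 830 CPM in Tg-labelled and 406 to 572 CPM in C57BL/6J livers, and the 13 macrophage markers to 546 to 874 CPM in Tg-labelled and 352 to 657 CPM in C57BL/6J livers. The 6 adipocyte markers, 3 to 6 of them detected, summed to 45.5 to 92.6 CPM in Tg-labelled and 10.3 to 27.5 CPM in C57BL/6J livers. Of this, Cidec averaged 39.7 ± 13.4 CPM in Tg-labelled and 8.48 ± 5.16 CPM in C57BL/6J livers (SD, n = 4 each). The 6 cholangiocyte markers, all detected, summed to 52.3 to 126 CPM in Tg-labelled and 37.5 to 48.3 CPM in C57BL/6J livers. The 10 hepatocyte markers were lower in sum, at 83921 to 93025 CPM in Tg-labelled and 116342 to 122247 CPM in C57BL/6J livers. Most of that difference lay in Alb, which averaged 46436 ± 3098 CPM in Tg-labelled and 76096 ± 1316 CPM in C57BL/6J livers (SD, n = 4 each). Alb is also among the genes that the acute-phase response lowers. Of the 10 estimates 0 were above 0, with a median of -0.30, and edgeR called 0. At an unadjusted p below 0.05 there was 1, beside 20.3% of all genes, and DESeq2 called 1, beside 8.28%. The part of these cells in the result was not tested.

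**Figure D2:**
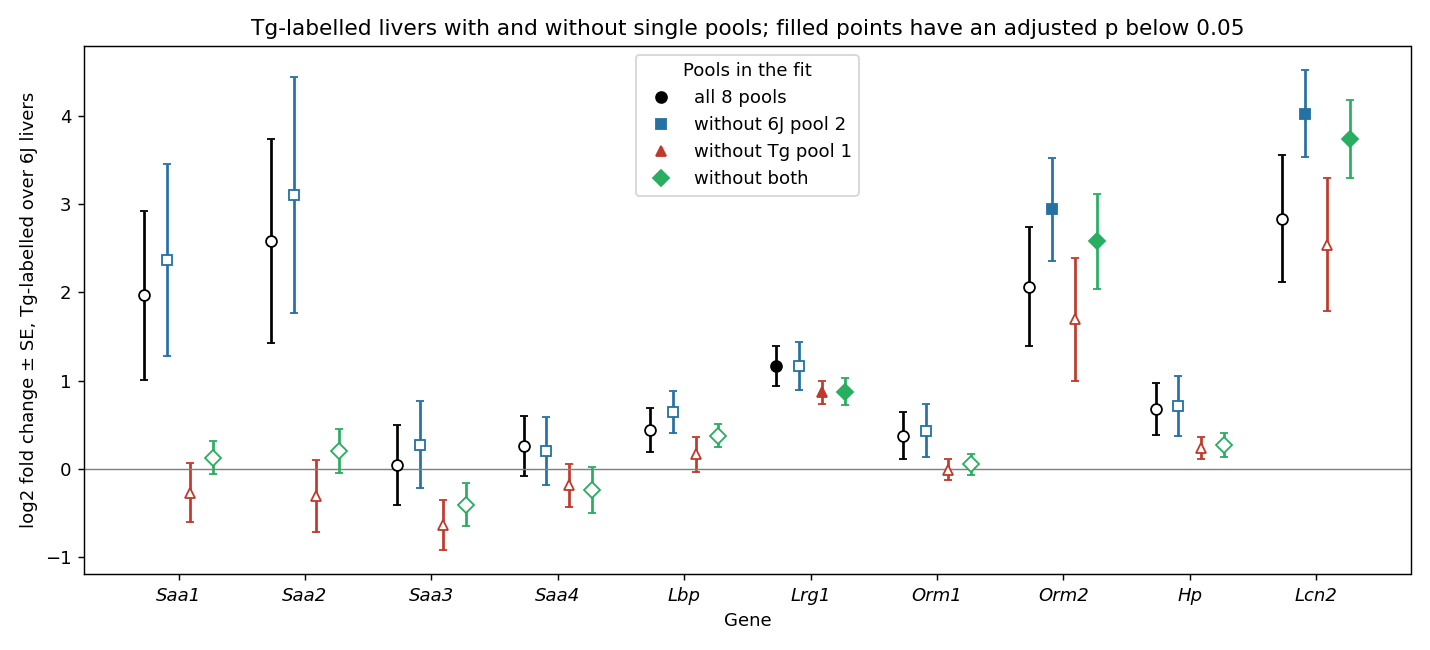
Log2 fold change ± SE of each acute-phase gene, Tg-labelled over C57BL/6J livers, with all 8 pools and with single pools left out; filled symbols have an edgeR adjusted p below 0.05. Saa1 and Saa2 stand at 1.97 and 2.58 with all pools and below 0 without Tg-labelled pool 1, and Lcn2 reaches 4.02 without C57BL/6J pool 2.

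In knockout livers 0 of the 10 acute-phase genes passed the test, where edgeR called 475 of 15942 genes (2.98%). None (0) of the 10 had an unadjusted edgeR p below 0.05, beside 18.4% of all genes tested, and DESeq2 also called 0, beside 5.43%. The groups overlapped for all 10, whereas 23.9% of all genes tested had separate groups. In these genes 5 estimates were above 0 and the median log2 fold change was 0.0056, beside -0.0077 over all genes tested.

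The knockout and C57BL/6NJ pools spanned similar ranges for Saa1 and Saa2. Saa1 was at 103, 199 and 538 CPM in knockout livers and at 37.8, 132 and 556 CPM in C57BL/6NJ livers. Saa2 was at 43.9, 124 and 431 CPM in knockout livers and at 15.5, 80.4 and 661 CPM in C57BL/6NJ livers. The spread within each group was several times that between the group means, and the log2 fold changes were 0.23 ± 0.82 and -0.32 ± 1.09. Lcn2 had 33.1, 51.3 and 118 CPM in knockout livers and 26.1, 65.7 and 375 CPM in C57BL/6NJ livers, with an estimate of -1.19 ± 0.80 (edgeR adjusted p = 0.472). Pool 3 of C57BL/6NJ was again far above its group.

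Lrg1, the gene that rose in both Tg-labelled comparisons, was at 773, 1083 and 864 CPM in knockout livers and 547, 888 and 1406 CPM in C57BL/6NJ livers, a difference of -0.069 ± 0.27 (edgeR adjusted p = 0.924). Orm2 was at 32.9, 41.8 and 68.1 CPM in knockout and 23.4, 31.0 and 52.8 CPM in C57BL/6NJ livers, with 0.41 ± 0.31, the highest of the 10 estimates. Hp ranged from 2913 to 3612 CPM in knockout and from 2415 to 3507 CPM in C57BL/6NJ livers. Orm1 spanned 351 to 560.3 CPM in knockout and 397 to 646 CPM in C57BL/6NJ livers, and Lbp 71.3 to 153 CPM in knockout and 105 to 156 CPM in C57BL/6NJ livers. Among the serum amyloid genes with less spread, Saa4 lay at 414 to 522 CPM in knockout and 344 to 504 CPM in C57BL/6NJ livers, and Saa3 at 4.90 to 5.89 CPM in knockout and 2.83 to 8.06 CPM in C57BL/6NJ livers. C57BL/6NJ pool 3 was the highest of its group for all 10 genes and knockout pool 3 for 8.

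**Figure D3:**
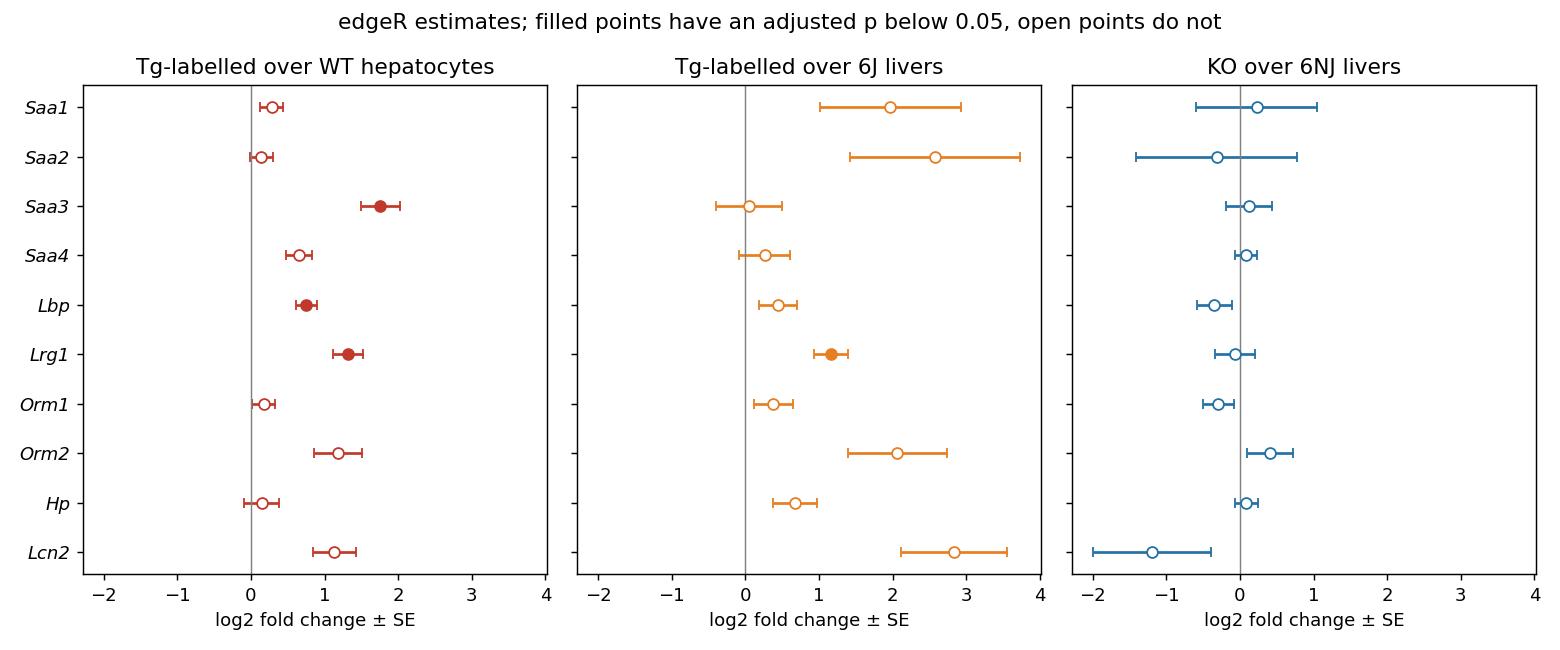
Log2 fold change ± SE (edgeR) of the 10 acute-phase genes in Tg-labelled hepatocytes, Tg-labelled livers and knockout livers, each over its wild type; filled points have an adjusted p below 0.05. Filled points are Saa3, Lbp and Lrg1 in hepatocytes and Lrg1 in Tg-labelled livers, and no point is filled for knockout livers.

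Whether the Tg-labelled effect differed between whole livers and hepatocytes was tested gene by gene as a difference of log2 fold changes, which called 131 of 15565 genes (0.842%) and 0 of the 10. With library size alone as scaling, 311 genes were called higher and 38 lower, beside 61 and 70 here. Saa3 came closest, with -1.90 ± 0.58 (edgeR adjusted p = 0.107); in the separate fits it was at 0.048 in livers and 1.76 in hepatocytes. It was the 1 of the 10 with an unadjusted p below 0.05, beside 22.8% of all genes tested. It was called by DESeq2 (adjusted p = 0.0276, beside 7.39% of all genes) and without Tg-labelled liver pool 1 (-2.44, edgeR adjusted p = 0.0243). Saa3 was also called without Tg-labelled hepatocyte pool 3, where 3545 of all 15850 genes tested were called. Lrg1, with 1.17 in livers and 1.32 in hepatocytes, gave a difference of -0.35 ± 0.37 (adjusted p = 0.564). Against the knockout effect in livers, the Tg-labelled effect differed in 167 of 16295 genes (1.02%) and 0 of the 10; 249 were higher and 68 lower with library size alone, beside 100 and 67 here. Lcn2 gave 4.02 ± 1.26 (edgeR adjusted p = 0.129) and Lrg1 1.22 ± 0.41 (adjusted p = 0.156). These 2 of the 10 had unadjusted p below 0.05, beside 16.9% of all genes tested, and were called by DESeq2, beside 5.15%, and Lcn2 was called without C57BL/6J pool 2 (5.197, edgeR adjusted p = 0.0363). The 2 liver comparisons were sequenced in separate studies and use different substrains as wild type.

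Levels of the acute-phase genes differed widely between plated hepatocytes and whole livers, a contrast described without a test because age, plating and sequencing differ together and cannot be told apart. Saa1, Saa2, Saa3, Orm1, Orm2 and Lcn2 were higher in every hepatocyte pool than in every liver pool. The mean CPM of wild-type hepatocytes was 165 times that of C57BL/6J livers for Lcn2, 94.5 times for Saa2, 33.8 times for Saa1, 32.4 times for Saa3, 19.2 times for Orm2 and 3.47 times for Orm1. Saa4 went the other way: it was at 45.3 to 97.3 CPM in hepatocyte pools and 227 to 698 CPM in liver pools, with a mean 5.75 times higher in C57BL/6J livers than in wild-type hepatocytes. Lbp, Lrg1 and Hp overlapped between hepatocytes and livers.

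Ordered by their means over the 6 groups, Lrg1 had C57BL/6NJ livers (947 CPM), knockout livers (907), Tg-labelled livers (884) and Tg-labelled hepatocytes (852) at the top, and neighbouring groups in that order overlapped. The next step, to C57BL/6J livers at 363 CPM, was the only one without overlap, and wild-type hepatocytes at 353 CPM overlapped C57BL/6J livers. Saa3 had 2 clear steps, from Tg-labelled hepatocytes at 469 CPM to wild-type hepatocytes at 143 CPM and from these to the livers, where 4 groups between 4.43 and 5.46 CPM overlapped. Lcn2 and Orm2 had the same 2 steps, and Saa4 had 2 in reverse order, from the livers at 313 to 470.3 CPM to Tg-labelled hepatocytes at 83.3 and wild-type hepatocytes at 54.4 CPM. Lcn2 averaged 6849 CPM in Tg-labelled and 3219 CPM in wild-type hepatocytes and 19.5 to 156 CPM in the liver groups, and Orm2 averaged 685 CPM in Tg-labelled and 311 CPM in wild-type hepatocytes and 16.2 to 73.4 CPM in livers. Saa1, Saa2 and Orm1 had 1 step, between the hepatocyte and the liver groups. Hp had none: each group overlapped the next, from 6183 CPM in Tg-labelled hepatocytes down to 2375 CPM in C57BL/6J livers. Lbp was lowest in wild-type hepatocytes, at 53.0 CPM with no overlap with Tg-labelled hepatocytes at 86.4 CPM, while its liver groups at 106 to 164 CPM overlapped each other.

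Levels between genes were compared on the deposited RPKM, which divides CPM by gene length. Hp ranked first of the 10 in all 6 groups, at 4604 ± 748 RPKM in Tg-labelled and 4299 ± 876 RPKM in wild-type hepatocytes (SD, n = 3 each) and 1768 to 3066 RPKM in the liver groups. Lcn2 was the second in Tg-labelled hepatocytes, at 2975 ± 704 RPKM, and the fifth in wild-type hepatocytes, at 1398 ± 361 RPKM (SD, n = 3 each), but the ninth in C57BL/6J livers at 8.48 RPKM. In all 4 liver groups Lrg1 and Orm1 ranked directly after Hp. Lrg1 was above Orm1 in Tg-labelled livers, at 654 and 589 RPKM, and below it in C57BL/6J livers, at 268 and 417 RPKM. Lbp was the lowest of the 10 in both hepatocyte groups, at 17.9 RPKM in Tg-labelled and 10.97 RPKM in wild-type pools, and Saa3 the lowest in all 4 liver groups, at 8.34 to 10.3 RPKM.

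**Figure D4:**
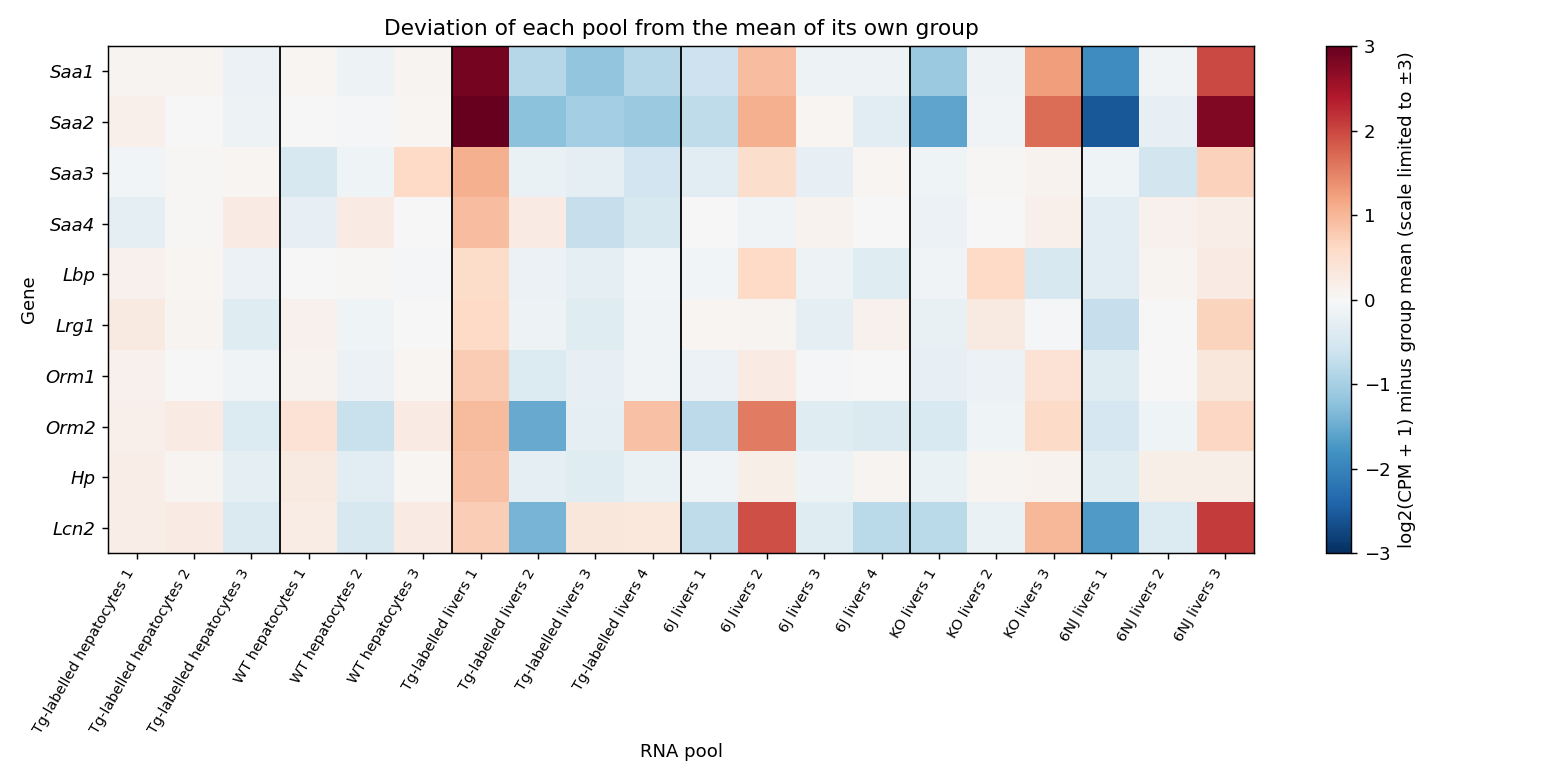
Log2(CPM + 1) of each acute-phase gene (rows) in each RNA pool (columns) minus the mean of that pool's own group; red is above and blue below the group mean, and black lines part the groups. Tg-labelled liver pool 1 and C57BL/6NJ liver pool 3 are red for all 10 genes, with the deepest colour at Saa2 in both pools; the colour scale ends at 3 in each direction.

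Within liver groups the acute-phase genes tended to vary together, with 1 pool the highest of its group for 8 to 10 of the 10. Hepatocyte groups had no such pool. Tg-labelled hepatocyte pools 1, 2 and 3 were the highest for 5, 3 and 2 genes, and wild-type pools 1, 2 and 3 for 4, 2 and 4. After the group mean was taken off log2(CPM + 1), all 45 pairs of genes had a Pearson r above 0 over the 20 libraries and 37 had one above 0.5, with a median of 0.63. The closest pair was Saa1 and Saa2 (r = 0.99), whose reads may be shared, and Orm2 and Lcn2 reached 0.85. Saa4 stood most apart, with r = 0.027 to Orm2 and 0.10 to Lcn2. With Tg-labelled liver pool 1 and C57BL/6NJ liver pool 3 left out, the 2 pools farthest from the median, the median was 0.35, 38 pairs were above 0 and 17 above 0.5. Saa1 with Saa2 was then at 0.98 and Orm2 with Lcn2 at 0.91, while Saa4 was below 0 with 5 genes, down to -0.46 with Orm2. The genes share library and pool, so these values describe the pools and carry no p.

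Among the 11955 genes that averaged 2 CPM or more, the 5 outside the set that were most like the mean of the 10 were Apcs (r = 0.90, rho = 0.77), which encodes serum amyloid P, Itih3 (0.89, 0.81) and Itih4 (0.88, 0.76), which encode inter-alpha-trypsin inhibitor chains, Tmc5 (0.85, 0.82) and Stip1 (0.85, 0.72), a co-chaperone gene. Apcs reached 213 CPM in the highest Tg-labelled liver pool, against a highest value of 46.9 CPM in C57BL/6J livers. Without the 2 pools named above, r was 0.75 for Itih3, 0.73 for Itih4, 0.57 for Apcs, and 0.50 for both Stip1 and Tmc5.

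Lists of other acute-phase and upstream genes, chosen with earlier results of these data known, were read the same way. Of the 27 other positive acute-phase genes tested in Tg-labelled hepatocytes, DESeq2 called 5 higher and 1 lower, beside 12.7% of all genes. At an unadjusted edgeR p below 0.05 there were 8, beside 28.9% of all genes. After adjustment edgeR called 2, both higher, beside 1.53% of all genes, and the list's median log2 fold change was 0.18. They were Cd14, the lipopolysaccharide co-receptor that takes its ligand from LBP, at 659 ± 77.3 CPM in Tg-labelled and 280.0 ± 23.0 CPM in wild-type hepatocytes (SD, n = 3 each; 1.27 ± 0.13, edgeR adjusted p = 0.0117), and Il1rn, the gene of the interleukin-1 receptor antagonist (1.42 ± 0.21, edgeR adjusted p = 0.0273). In Tg-labelled livers 1 of 26 rose, beside 0.971% of all genes, and the list's median was 0.46. This was Il1r1, at 97.0 ± 30.6 CPM in Tg-labelled and 32.9 ± 7.32 CPM in C57BL/6J livers (SD, n = 4 each). Its log2 fold change was 1.44 ± 0.25 (edgeR adjusted p = 0.0356). At an unadjusted p below 0.05 there were 7 of the 26, beside 20.3% of all genes, and DESeq2 called 3 higher and 0 lower, beside 8.28%. In knockout livers edgeR called 0 of 26 (8 at an unadjusted p below 0.05, beside 18.4% of all genes, and 1 by DESeq2, beside 5.43%), with a median of -0.30. Of 10 negative acute-phase genes, which the response lowers, edgeR called 0 in each of these comparisons. At an unadjusted p below 0.05 there were 2 in hepatocytes, 3 in Tg-labelled livers and 3 in knockout livers, beside 28.9%, 20.3% and 18.4% of all genes in these comparisons. DESeq2 called 1, 3 and 2 of the 10, those in livers all lower, beside 12.7%, 8.28% and 5.43% of all genes.

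Among the cytokines that start the response, Tnf rose in Tg-labelled hepatocytes, to 5.38 ± 0.45 CPM in Tg-labelled pools, against 2.16 ± 0.22 CPM in wild-type pools (SD, n = 3 each). Its log2 fold change was 1.36 ± 0.21 (edgeR adjusted p = 0.0298). Tnf was the 1 gene called of 6 tested, beside 3.15% of all genes. Il6 was too low to test, at no more than 0.115 CPM in any library. No cytokine (0 of 3 in Tg-labelled and 0 of 4 in knockout livers) was called by edgeR in the livers. At an unadjusted p below 0.05 there were 2 in Tg-labelled and 0 in knockout livers, beside 20.3% and 18.4% of all genes. DESeq2 called the same numbers, beside 8.28% and 5.43% of all genes. Of 12 receptors, 1 rose in Tg-labelled livers, beside 0.971% of all genes. This was Osmr, the oncostatin M receptor, at 17.1 ± 1.77 CPM in Tg-labelled and 7.04 ± 2.04 CPM in C57BL/6J livers (SD, n = 4 each). Its log2 fold change was 1.14 ± 0.21 (edgeR adjusted p = 0.0391). At an unadjusted p below 0.05 there were 6 of the 12 in Tg-labelled livers, beside 20.3% of all genes. DESeq2 called 3 of the 12 higher and 1 lower there, beside 8.28% of all genes. In knockout livers 1 of the 12 was called, beside 2.98% of all genes. This was Il1rap, the accessory chain of the interleukin-1 receptor, which fell (-0.43 ± 0.09, edgeR adjusted p = 0.0404). In hepatocytes edgeR called 0 of 12 receptors (2 at an unadjusted p below 0.05, beside 28.9% of all genes, and 0 by DESeq2, beside 12.7%).

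Of 22 signalling and transcription factor genes, 2 rose in Tg-labelled hepatocytes, beside 1.53% of all genes. At an unadjusted p below 0.05 there were 10, beside 28.9% of all genes, and DESeq2 called 3 higher and 0 lower, beside 12.7%. Cebpd, the C/EBP-delta gene, was at 103 ± 16.7 CPM in Tg-labelled and 34.5 ± 10.5 CPM in wild-type hepatocytes (SD, n = 3 each; 1.60 ± 0.25, edgeR adjusted p = 0.0298). Creb3l3, which encodes the membrane-bound factor CREBH, was at 118 ± 31.9 CPM in Tg-labelled and 53.0 ± 6.46 CPM in wild-type hepatocytes (SD, n = 3 each; 1.18 ± 0.21, edgeR adjusted p = 0.0361). In knockout livers 1 of 22 was called, beside 2.98% of all genes. This was Nfkbiz, an atypical inhibitor of NF-kB, which rose (0.66 ± 0.10, edgeR adjusted p = 0.0104). In Tg-labelled livers edgeR called 0 of 22 (5 at an unadjusted p below 0.05, beside 20.3% of all genes, and 2 by DESeq2, beside 8.28%). These calls also depended on single pools: with wild-type hepatocyte pool 3 left out, none (0) of Cd14, Il1rn, Tnf, Cebpd and Creb3l3 passed, without knockout pool 1, the pool with muscle RNA, neither Il1rap nor Nfkbiz did, and the calls of Il1r1 and Osmr held without C57BL/6J pool 2 or Tg-labelled pool 1 or 2 and were lost without any of the other 5 liver pools. Il1rap was lost with any 1 of its 6 pools left out.

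Cd163, the macrophage receptor that takes up haptoglobin bound to haemoglobin, fell in Tg-labelled livers, to 10.5 ± 3.98 CPM, against 28.6 ± 6.02 CPM in C57BL/6J livers (SD, n = 4 each; -1.58 ± 0.28, edgeR adjusted p = 0.0370). It was the 1 macrophage marker of 13 called by edgeR, and 11 of the 13 had estimates above 0. At an unadjusted p below 0.05 there were 10 of the 13, beside 20.3% of all genes. DESeq2 called 4 of them higher and 2 lower, beside 8.28% of all genes. Among fibroblast and stellate cell markers 2 of 8 rose in the same livers, beside 0.971% of all genes. They were Pdgfrb (0.86 ± 0.14, edgeR adjusted p = 0.0294) and Lum (1.74 ± 0.34, edgeR adjusted p = 0.0464). The calls of Cd163, Pdgfrb and Lum held without C57BL/6J pool 2 or Tg-labelled pool 1 and were lost without any of the other 6 pools, except that Cd163 and Pdgfrb also held without Tg-labelled pool 2. All 9 muscle markers tested rose in knockout livers, as did the adipocyte marker Cfd (5.59 ± 0.32, edgeR adjusted p = 4.97e-05), and the urea cycle gene Cps1, a hepatocyte marker, fell (-0.66 ± 0.12, edgeR adjusted p = 0.0193). In hepatocytes Cfd (5.56 ± 0.78, edgeR adjusted p = 0.0247) and Cidec (2.79 ± 0.35, edgeR adjusted p = 0.0186) rose. Cfd was near 0 in wild-type pools, at 0.0785 ± 0.0753 CPM, and at 3.73 ± 2.01 CPM in Tg-labelled pools (SD, n = 3 each), so the size of its fold change is uncertain. Both calls were lost without Tg-labelled pool 1 or 2 or wild-type pool 1 or 3, and Cidec also without wild-type pool 2. Cps1 was lost without knockout pool 1 or 2 or C57BL/6NJ pool 2.

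CLIP-seq libraries of Tg-labelled hepatocytes held 6151 to 10902 counts each, and none (0) of these fell in the 10 acute-phase genes in any of the 10 libraries. Taking 3 counts as the limit of a count of 0, this allows a share of up to 0.0275% to 0.0488% of a library, so binding below that share was not detectable at this depth. The limits cover counting error only. Each CLIP-seq library had counts in only 1043 to 1410 of the 41388 genes, so most genes stood at 0 there. A count of 0 therefore does not set the 10 acute-phase genes apart from most other genes.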

How the data were processed

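RNA-seq was read from 20 pooled libraries and CLIP-seq from 10. Per the submitters' processing notes, the tools were bcl2fastq, STAR 2.0.4b, Subread and featureCounts 1.45, with GRCm38. The deposited raw counts per gene were tested. The deposited CPM, the authors' counts divided by the library's total, gave values per pool, and the deposited RPKM (CPM per kilobase) levels between genes. Names were found for 40254 of 41388 identifiers.

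Each comparison was fitted on its own libraries with edgeR 4.0.16 in R 4.3.3: filterByExpr (minimum count 10, total 15), TMM, the two-sided quasi-likelihood F-test and Benjamini-Hochberg adjustment over all genes, with 0.05 as threshold. SE is the log2 fold change divided by the root of F. DESeq2 1.42.0, other scalings and filters, all groups in 1 fit, a replicate block and left-out pools were alternatives. Members, lists and alternatives were chosen with earlier results of these data known. Genes named are the 10 members, A1cf, up to 4 genes called per other list and comparison, with the smallest p, and the 5 genes most like the members. Muscle markers other than Acta1 are counted and not named in the results. Il6, Adipoq, Alb and the neutrophil markers were added after their values were seen. Replicate numbers were not taken as pairs in the main fits. Nothing in the labels says more of the pools than their mice, so p-values measure the spread between pools.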

Additional observations from a re-analysis of the deposited data

Results flagged for a closer look

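In groups of 4 pools, 20 combinations of an acute-phase gene and a liver group were checked for a pool whose gap to its neighbour, as a share of the group's range, passed Dixon's critical value for 4 values, and 6 were found; chance flags about 1 in 20 groups, and the 10 genes are not independent. In Tg-labelled liver pool 1 these were Saa1 at 433 CPM, Saa2 at 222 CPM, Saa3 at 10.2 CPM and Hp at 7028 CPM, each far above the other 3 pools. In C57BL/6J liver pool 2, the pool with muscle RNA, they were Orm2 at 39.3 CPM and Lcn2 at 53.4 CPM.

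The Tg-labelled effect differed between livers and hepatocytes for 2 genes of the wider lists. Osmr had a difference of 1.58 ± 0.33, higher in livers (edgeR adjusted p = 0.0444), and Creb3l3 one of -1.69 ± 0.28 (edgeR adjusted p = 0.0259). The Tg-labelled and knockout effects in livers differed for Cd163, by -1.61 ± 0.36 (edgeR adjusted p = 0.0493), and for the muscle gene Acta1, by -17.79 ± 3.78 (edgeR adjusted p = 0.0451). Acta1 was at no more than 0.710 CPM in Tg-labelled livers and reached 778 CPM in C57BL/6J pool 2, and it reached 44.8 CPM in knockout livers and 0.0885 CPM in C57BL/6NJ livers.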

How the results depend on the processing

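The number of the 10 genes called in hepatocytes was 3, and 6 with DESeq2 and 0 to 6 with single pools left out. In Tg-labelled livers it was 1, and 0 with a filter of a mean of at least 1 CPM, 2 with DESeq2, 3 with all 6 groups in 1 fit, 2 without the pools with muscle RNA, 3 also without Tg-labelled pool 1 (chosen after seeing the data), and 0 to 2 with single pools left out. In knockout livers it was 0 in every fit but the block. The difference between livers and hepatocytes gave 0, but 1 with DESeq2, 1 without Tg-labelled liver pool 1 and the muscle pools, and 0 to 1 with single pools left out; the difference between Tg-labelled and knockout effects gave 0, but 2 with DESeq2 and 0 to 1 with single pools left out. The cause was not tested.

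Fits with the replicate number as a block called 0 members in hepatocytes, 0 in Tg-labelled livers and 1 in knockout livers (Orm2, 0.42, edgeR adjusted p = 0.0498), with estimates of -0.16 for Saa3 in Tg-labelled livers and 0.47 for Saa2 and 0.022 for Lrg1 in knockout livers. Same-numbered pools correlated at 0.70, -0.54 and 0.0077 in hepatocytes, from -0.13 to 0.080 in Tg-labelled livers and from -0.0044 to 0.092 in knockout livers. Whether same-numbered hepatocyte pools share more than a number was not tested. Over all genes the block called 21 in hepatocytes and 44 in Tg-labelled livers.

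All 48 changes of sign were of genes not called. Without Tg-labelled hepatocyte pools 1 and 2 and wild-type pool 1, Saa2 was -0.021 and Hp -0.013. Without Tg-labelled liver pool 1 and the muscle pools, Tg-labelled livers gave -0.40 for Saa3 and -0.24 for Saa4, the difference to hepatocytes -0.20 for Saa1 and -0.17 for Orm1, and the difference to the knockout -0.52 for Saa1 and -0.42 for Saa4. Without the muscle pools, knockout livers gave 0.16 for Saa2 and 0.035 for Lrg1, and the difference to the knockout 0.053 for Saa3. With library size alone, the difference to hepatocytes was 0.012 for Lrg1 and that to the knockout 0.021 for Saa3.

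With single pools left out, estimates in Tg-labelled livers ran from -0.27 to 2.37 for Saa1, -0.31 to 3.10 for Saa2, -0.64 to 0.28 for Saa3, -0.19 to 0.47 for Saa4 and -0.010 to 0.51 for Orm1. In knockout livers they ran from -0.69 to 1.71 for Saa1, -1.60 to 2.04 for Saa2, -0.16 to 0.65 for Saa3, -0.069 to 0.17 for Saa4, -0.34 to 0.31 for Lrg1, -0.063 to 0.18 for Hp and -1.90 to 0.54 for Lcn2. The difference to hepatocytes ran from -0.60 to 2.00 for Saa1, -0.50 to 2.77 for Saa2 and -0.23 to 0.28 for Orm1, and that to the knockout from -0.50 to 2.65 for Saa1, -0.77 to 0.18 for Saa3 and -0.28 to 0.37 for Saa4.

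Genes called in all numbered 434 in hepatocytes (DESeq2 1814, all groups in 1 fit 4323, no filter 669, single pools left out 0 to 4934), 188 in Tg-labelled livers (DESeq2 1280, all groups 991, library size alone 285, without the muscle pool 385 and also without Tg-labelled pool 1 924, single pools left out 27 to 561), and 475 in knockout livers (DESeq2 848, all groups 42, without the muscle pool 137, no filter 1079, single pools left out 137 to 645). The difference between livers and hepatocytes called 131 (DESeq2 1027, all groups 889, no filter 86, library size alone 349, single pools left out 5 to 3545) and that between Tg-labelled and knockout effects 167 (DESeq2 800, library size alone 317, without the muscle pools 68, single pools left out 24 to 449). With 3 or 4 pools a group, p-values near the threshold turned on single pools. The CLIP depth limits only shares.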
